A study of Homo sapiens with 12 samples.

Results

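The 10 genes described here encode members of the TGF-beta and activin pathway. They are the ligands TGFB1, TGFB2 and INHBA, the receptors TGFBR1, TGFBR2 and TGFBR3, the signal transducer SMAD3, the inhibitory SMADs SMAD6 and SMAD7, and the SMAD corepressor SKIL. They were taken as a list of names, chosen with earlier results of these data known. The 10 are among 57820 gene identifiers counted in the series. All 10 were among the 16060 genes that passed the filter on low counts. Polyadenylated RNA was sequenced from TE10 and from Kyse410, both of them established cell lines grown from human squamous cell carcinomas of the esophagus. Each line had been stably infected with a construct for a short hairpin RNA against UHRF1 (shUHRF1) or for a scramble control. The groups were TE10 shUHRF1, TE10 scramble, Kyse410 shUHRF1 and Kyse410 scramble, with 3 libraries in each and 12 in all. The labels used here do not state the number of hairpins, the vector, the time after infection or whether the infected cells are clonal.

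TGF-beta ligands are secreted in a latent form and, once released, bind TGFBR2, a serine/threonine kinase that then activates TGFBR1. TGFBR1 phosphorylates SMAD2 and SMAD3, which join SMAD4 and act on transcription in the nucleus, while activins use the same SMADs through their own receptors. In squamous epithelium the pathway is known both for restraining proliferation and, in carcinoma cells, for promoting migration and epithelial-mesenchymal transition, which is one of the subjects of the series.

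Reads assigned to genes numbered 7857662 to 12005229 per library. Whether the 3 libraries within each group stem from separate cultures is not stated, so the p-values reflect no more than the library-to-library spread, which may be technical. UHRF1, the targeted gene, averaged 85.9 ± 3.49 CPM (a gene's reads scaled to the size of its library) in TE10 shUHRF1 and 179 ± 5.34 CPM in TE10 scramble, and 42.5 ± 0.892 CPM in Kyse410 shUHRF1 and 99.1 ± 3.47 CPM in Kyse410 scramble (SD, n = 3 each). Its log2 fold change was -1.06 ± 0.0526 in TE10 (SE, edgeR adjusted p = 3.22e-23) and -1.22 ± 0.0573 in Kyse410 (1.62e-24). All 11 epithelial markers examined, among them KRT5 and KRT14, reached 1 CPM in each group, although KRT5 averaged 1.37 ± 0.267 CPM in Kyse410 shUHRF1 and 1.14 ± 0.567 CPM in Kyse410 scramble. The summed level of these markers was 1512 to 1592 CPM in TE10 shUHRF1, against 1674 to 1720 CPM in TE10 scramble, and 1176 to 1187 CPM in Kyse410 shUHRF1, against 911 to 936 CPM in Kyse410 scramble. Single markers went both ways within that sum. In TE10 the basal keratin KRT5 averaged 8.05 ± 0.455 CPM in shUHRF1 and 67.4 ± 1.06 CPM in scramble, and KRT14 11.4 ± 0.986 CPM in shUHRF1 and 55.2 ± 1.34 CPM in scramble. E-cadherin, CDH1, averaged 118 ± 3.80 CPM in TE10 shUHRF1 and 51.5 ± 1.98 CPM in TE10 scramble, and EPCAM 218 ± 12.7 CPM in TE10 shUHRF1 and 132 ± 5.96 CPM in TE10 scramble. KRT17 averaged 41.0 ± 0.124 CPM in Kyse410 shUHRF1 and 81.0 ± 3.39 CPM in Kyse410 scramble. CDH1 averaged 195 ± 2.95 CPM in Kyse410 shUHRF1 and 113 ± 0.673 CPM in Kyse410 scramble. Of 7 fibroblast markers, COL1A1 and PDGFRB were the ones that reached 1 CPM in any group, and DCN, LUM and COL3A1 were at or near 0. None of 7 blood cell markers reached 1 CPM. Of 4 endothelial markers matched (PECAM1 was not), CDH5 alone reached 1 CPM. It averaged 95.7 ± 7.63 CPM in Kyse410 shUHRF1 and 24.7 ± 0.170 CPM in Kyse410 scramble. In TE10 it averaged 14.1 ± 1.53 CPM in shUHRF1 and 9.13 ± 1.75 CPM in scramble. Mitochondrially encoded genes took 5.23 ± 0.432% of gene reads in TE10 shUHRF1 and 5.998 ± 0.0511% in TE10 scramble, and 3.90 ± 0.105% in Kyse410 shUHRF1 and 2.38 ± 0.0680% in Kyse410 scramble. The part of these shifts in the results below was not tested.

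With the UHRF1 shRNA, the pathway genes moved in a mixture of directions, and several moved in opposite directions in the 2 lines. Levels are CPM scaled by TMM, fold changes are log2 values of shUHRF1 over scramble with their standard error (SE), and calling a gene required an adjusted p under 0.05 in edgeR's quasi-likelihood test with Benjamini-Hochberg adjustment over all 16060 genes. In TE10, 3 of the 10 rose and 4 fell, where 18.8% of all genes tested rose and 20.0% fell. In Kyse410, 4 rose and 5 fell, where 22.6% of all genes rose and 26.7% fell. Genes called in either direction made up 38.8% of all genes in TE10 and 49.3% in Kyse410. The libraries of the shUHRF1 and scramble groups did not overlap for 9 of the 10 genes in TE10, against 46.9% of all genes, and for 8 of the 10 in Kyse410, against 55.6%. The median log2 fold change of the 10 was -0.23 in TE10, against 0.001 over all genes, and -0.22 in Kyse410, against -0.025. Because the 10 were chosen with earlier results of these data known, such comparisons with all genes, here and below, are descriptive. A knockdown that alters the number of cells expressing a gene and one that alters the RNA per cell cannot be told apart in these bulk libraries.

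In both lines TGFBR2 and TGFBR3 fell and SMAD6 rose. INHBA, SMAD3 and SKIL were called in both lines in opposite directions. INHBA and SMAD3 fell in TE10 and rose in Kyse410, and SKIL did the reverse. Over all genes, 9.03% fell in both lines, 6.96% rose in both and 7.92% were called in opposite directions. The other 4 genes were called in a single line, TGFB1, TGFB2 and TGFBR1 in Kyse410 and SMAD7 in TE10.

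**Figure D1:**
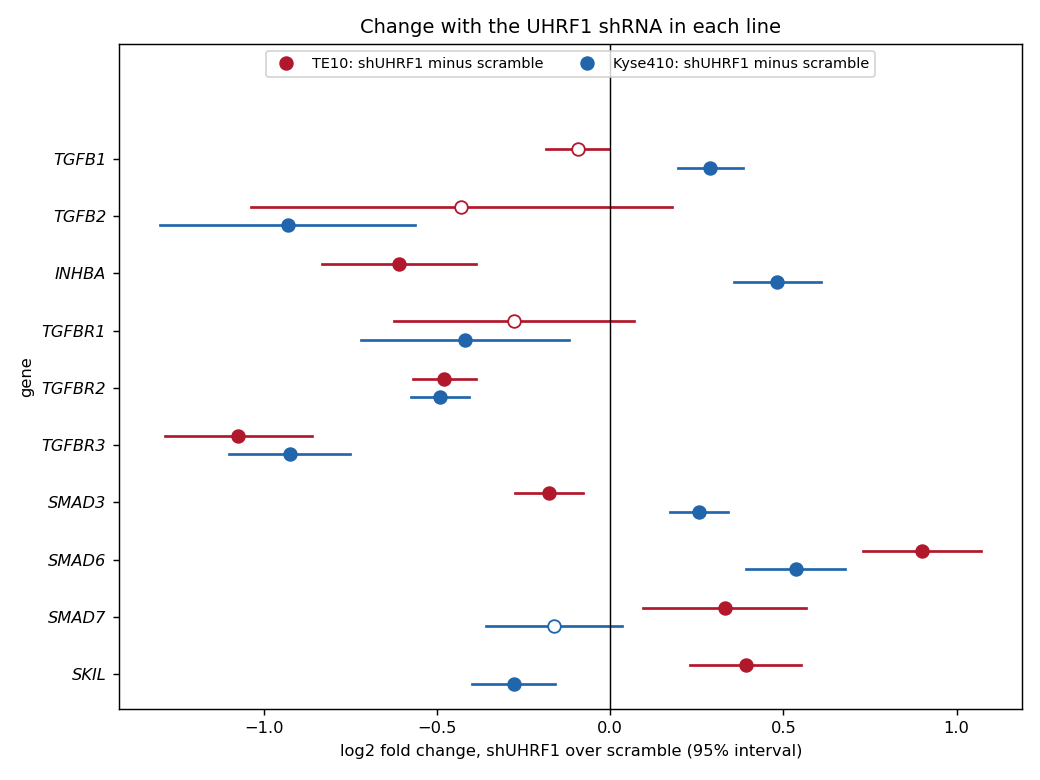
Log2 fold change of each gene in shUHRF1 over scramble libraries (horizontal axis), for TE10 in red and Kyse410 in blue. Bars are 95% intervals computed from the edgeR fold change and its SE. Filled symbols were called and open symbols were not. TGFBR2, TGFBR3 and SMAD6 lie on the same side of 0 in both lines, while INHBA, SMAD3 and SKIL lie on opposite sides.

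The promoters of 4 of these genes are shown because SMAD6 and TGFBR3 moved the same way in both lines, INHBA and SKIL moved opposite ways, and each has a single start in the table used. Each run is the 250 bases before the RefSeq transcription start in GRCh38.p14, read 5′ to 3′ on the gene's own strand. The counts themselves were made on GRCh37.p13 and carry no position, so the windows place the genes and do not locate any signal. The windows were searched on both strands for GTCTAGAC (a SMAD-binding palindrome), TGANTCA (AP-1), TGACGTCA (the cyclic AMP response element), GGGCGG (the GC box, written CCGCCC where it lies on the other strand) and TATAAA. Capitals mark the motif named on each line, and other GC boxes stay in lower case. No match in these 4 windows overlaps a match of another motif.
SMAD6, chr15:66701986-66702235, plus strand, GTCTAGAC in capitals: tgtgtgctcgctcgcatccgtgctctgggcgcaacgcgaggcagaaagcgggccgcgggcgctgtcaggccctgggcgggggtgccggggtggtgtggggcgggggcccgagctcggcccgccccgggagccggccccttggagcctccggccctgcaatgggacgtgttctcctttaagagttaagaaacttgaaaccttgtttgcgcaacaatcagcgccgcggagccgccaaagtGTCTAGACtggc
TGFBR3, chr1:91886152-91886401, minus strand, GC boxes in capitals: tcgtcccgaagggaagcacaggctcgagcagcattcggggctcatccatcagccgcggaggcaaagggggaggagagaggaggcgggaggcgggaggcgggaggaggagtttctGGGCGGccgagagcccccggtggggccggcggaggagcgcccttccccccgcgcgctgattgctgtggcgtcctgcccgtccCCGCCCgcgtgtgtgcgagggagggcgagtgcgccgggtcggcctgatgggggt
INHBA, chr7:41703091-41703340, minus strand, TATAAA in capitals: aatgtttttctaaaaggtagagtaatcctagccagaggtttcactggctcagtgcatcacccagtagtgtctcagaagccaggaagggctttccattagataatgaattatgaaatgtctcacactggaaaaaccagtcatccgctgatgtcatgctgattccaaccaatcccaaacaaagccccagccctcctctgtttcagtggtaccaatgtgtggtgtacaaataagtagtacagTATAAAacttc
SKIL, chr3:170357465-170357714, plus strand, TGACGTCA in capitals: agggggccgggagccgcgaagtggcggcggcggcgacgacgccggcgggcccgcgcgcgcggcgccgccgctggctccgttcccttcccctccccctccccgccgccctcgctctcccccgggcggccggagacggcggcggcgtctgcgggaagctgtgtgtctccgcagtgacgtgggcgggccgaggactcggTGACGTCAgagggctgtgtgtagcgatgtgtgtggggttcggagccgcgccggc

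The palindrome GTCTAGAC begins 12 bases before the SMAD6 start and occurs in 0.18% of all 35116 promoter windows of this length. Windows of all 10 genes, several for some genes, were searched for every motif, and SMAD6 alone held the palindrome. The shares given here are per window and take no account of the number of windows and motifs searched. The SKIL match to TGACGTCA begins 54 bases before the start, and 1.65% of windows hold one. The INHBA match to TATAAA begins 11 bases before the start, and 10.72% of windows hold one. GC boxes occur in 42.64% of windows. The SMAD6 and SKIL windows hold 3 each, the TGFBR3 window 2 and the INHBA window 0. The 4 promoters also differed in CpG content, the substrate of the methylation that UHRF1 helps to maintain. The SKIL window holds 42 CpG dinucleotides, TGFBR3 28, SMAD6 25 and INHBA 1, against a median of 11 over all windows. A match describes the letters alone, and no methylation or factor binding was measured here.

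Among the receptors, TGFBR2 and TGFBR3 fell in both lines, while TGFBR1 was called in Kyse410 and not in TE10. TGFBR2, the kinase that binds TGF-beta, had 140, 144 and 146 CPM in TE10 shUHRF1, against 200, 196 and 204 CPM in TE10 scramble. It had 180.8, 180.8 and 180.6 CPM in Kyse410 shUHRF1, against 247, 264 and 252 CPM in Kyse410 scramble. All 3 shUHRF1 libraries lay below the scramble libraries in each line. The level was 71.7% of the scramble level in TE10 and 71.1% in Kyse410, with log2 fold changes of -0.48 ± 0.0451 (edgeR adjusted p = 7.67e-13) and -0.49 ± 0.0412 (7.99e-15). The difference between the lines was -0.01 with a 95% interval of -0.13 to 0.11 (edgeR adjusted p = 0.899).

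TGFBR3, also called betaglycan, is a coreceptor that presents TGF-beta to TGFBR2 and binds TGF-beta 2 and inhibin. It had 16.3, 16.9 and 12.5 CPM in TE10 shUHRF1, against 35.1, 30.1 and 31.2 CPM in TE10 scramble. Kyse410 shUHRF1 had 23.7, 21.3 and 23.9 CPM, against 44.0, 43.5 and 43.0 CPM in Kyse410 scramble. The groups were far apart in both lines, and among the 10 genes this was the largest fall in TE10. It left 47.5% of the scramble level in TE10 (log2 fold change -1.07 ± 0.106, edgeR adjusted p = 3.36e-12) and 52.6% in Kyse410 (-0.93 ± 0.0869, 3.69e-13). The lines differed by 0.15, with a 95% interval of -0.13 to 0.43 (edgeR adjusted p = 0.43).

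TGFBR1, the kinase that phosphorylates the SMADs, was counted at low levels and gave the least firm result of the receptors. TE10 shUHRF1 had 6.49, 8.05 and 7.83 CPM, against 9.43, 8.92 and 8.79 CPM in TE10 scramble. Kyse410 shUHRF1 had 8.94, 8.77 and 6.83 CPM, against 10.97, 8.67 and 13.4 CPM in Kyse410 scramble. In TE10 the shUHRF1 libraries were all lower, but the log2 fold change of -0.28 ± 0.172 was not called (95% interval -0.62 to 0.07, edgeR adjusted p = 0.21). In Kyse410 the libraries overlapped, and the fall of -0.42 ± 0.149 was called (edgeR adjusted p = 0.0164). That call was lost without Kyse410 shUHRF1 replicate 3 (-0.32, adjusted p = 0.105), without Kyse410 scramble replicate 3 (-0.26, adjusted p = 0.195) and with DESeq2 (-0.41, adjusted p = 0.0915). The difference between lines was -0.14, with an interval of -0.60 to 0.32 (edgeR adjusted p = 0.661).

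**Figure D2:**
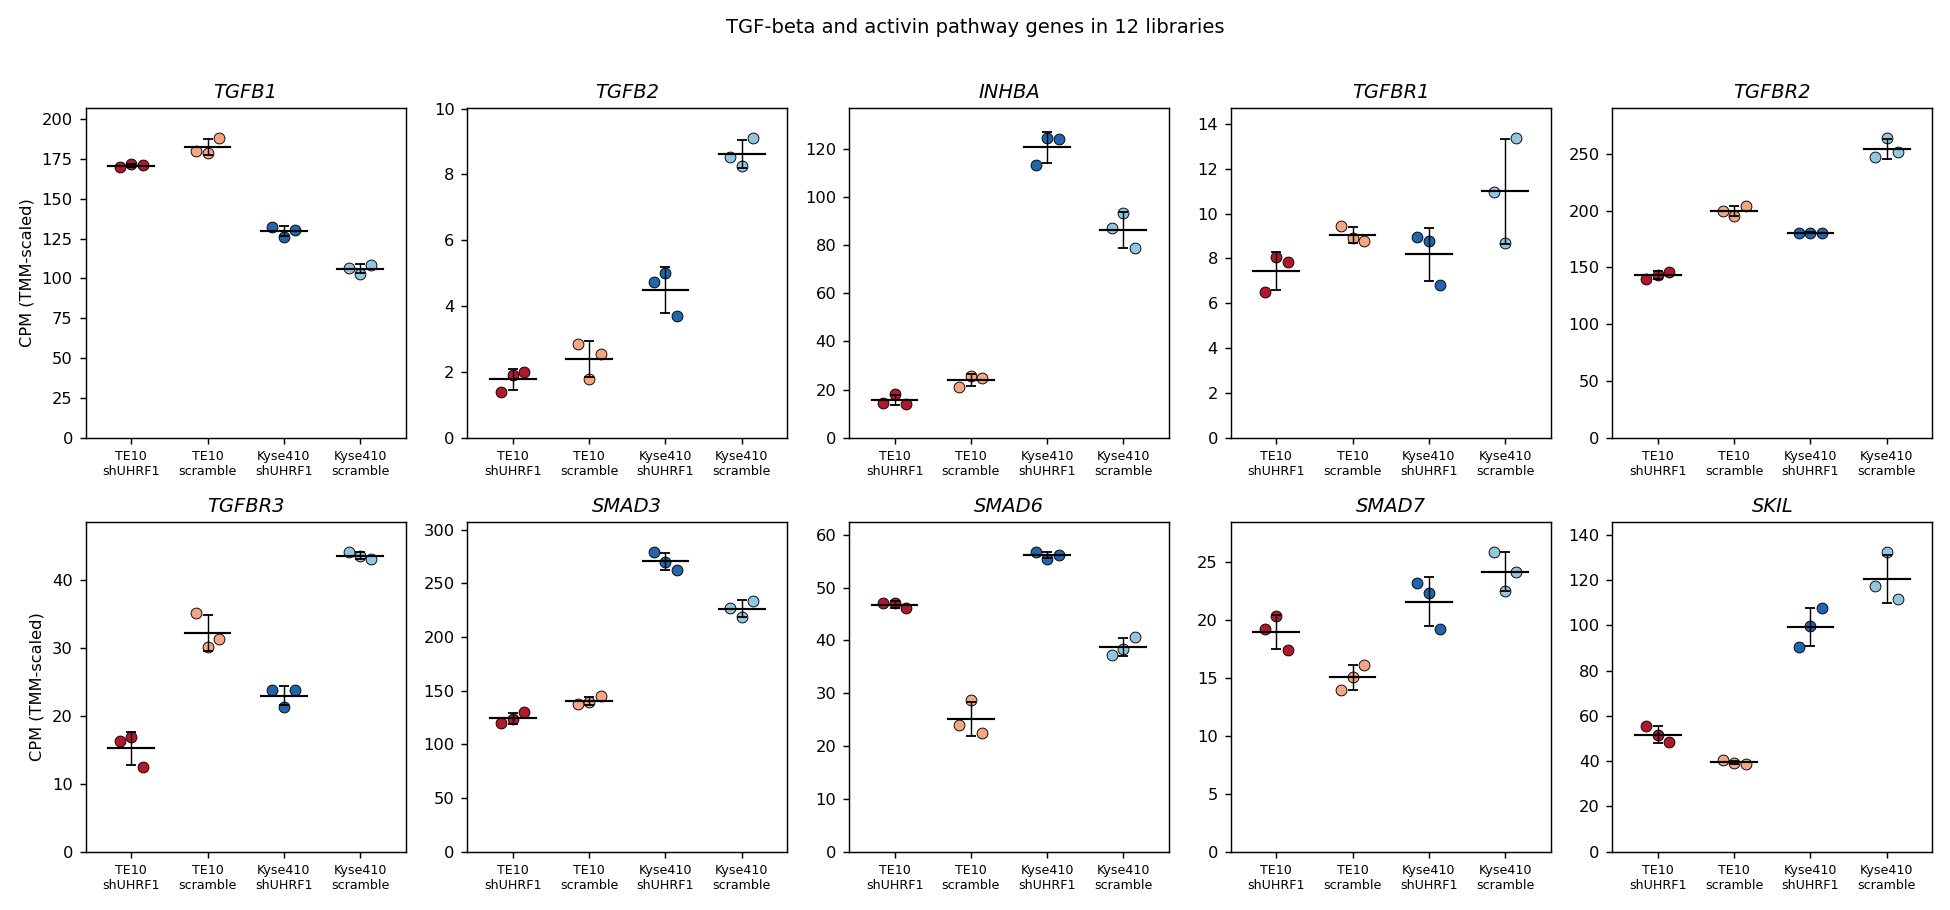
TMM-scaled CPM of each gene in the 12 libraries (vertical axes, each gene on its own scale), 1 point per library, with a line at the group mean and bars of 1 SD. TGFBR2 and TGFBR3 are lower, and SMAD6 higher, in the shUHRF1 libraries of each line, while INHBA and SKIL move in opposite directions in TE10 and Kyse410.

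Of the ligand genes, INHBA and TGFB1 answered differently in the lines, while for TGFB2 no difference was called. INHBA encodes the beta A subunit that forms activin A as a homodimer. In TE10 shUHRF1 it had 14.5, 18.3 and 14.2 CPM, against 20.9, 25.6 and 25.0 CPM in TE10 scramble. In Kyse410 shUHRF1 it had 113, 124 and 124 CPM, against 87.1, 93.3 and 78.6 CPM in Kyse410 scramble. The shUHRF1 libraries were all lower in TE10 and all higher in Kyse410. The log2 fold change was -0.61 ± 0.111 in TE10 (edgeR adjusted p = 1.05e-05) and 0.48 ± 0.0621 in Kyse410 (3.70e-09). The difference of these responses was 1.09 ± 0.127 (edgeR adjusted p = 4.64e-10), the largest among the 10 genes.

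TGFB1 encodes the main TGF-beta ligand. TE10 shUHRF1 libraries had 170.1, 172 and 171 CPM, against 180.3, 179 and 188 CPM in TE10 scramble. Kyse410 shUHRF1 libraries had 132, 126 and 131 CPM, against 107, 103 and 109 CPM in Kyse410 scramble. The groups did not overlap in either line. TGFB1 rose in Kyse410 (log2 fold change 0.29 ± 0.0466, edgeR adjusted p = 7.04e-07), and in TE10 the value of -0.09 ± 0.0455 was not called (edgeR adjusted p = 0.0963). The lines differed by 0.38 ± 0.0651 (edgeR adjusted p = 3.35e-06). The exons of TGFB1 share 215 bases with those of HNRNPUL1 on the opposite strand, and with the strand setting unknown, reads there cannot be assigned to one of them.

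TGFB2, the ligand that depends most on TGFBR3, was the least abundant of the 10 in TE10. TE10 shUHRF1 had 1.40, 1.92 and 1.99 CPM, or 11 to 15 reads per library, against 2.84, 1.78 and 2.54 CPM in TE10 scramble, or 15 to 24 reads. Kyse410 shUHRF1 had 4.74, 4.997 and 3.69 CPM, against 8.53, 8.26 and 9.10 CPM in Kyse410 scramble. The TE10 groups overlapped and the Kyse410 groups did not. The fall in Kyse410 was -0.93 ± 0.183 (edgeR adjusted p = 2.59e-05), and the value in TE10 was -0.43 ± 0.303 (95% interval -1.04 to 0.18, edgeR adjusted p = 0.274). A difference between the lines was not called (-0.50, interval -1.23 to 0.22, edgeR adjusted p = 0.285).

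Inside the cell, the inhibitory SMAD6 rose in both lines. SMAD6 is known chiefly as an inhibitor of BMP signalling. It had 47.1, 47.2 and 46.0 CPM in TE10 shUHRF1, against 24.0, 28.6 and 22.6 CPM in TE10 scramble. It had 56.7, 55.5 and 56.2 CPM in Kyse410 shUHRF1, against 37.2, 38.5 and 40.6 CPM in Kyse410 scramble. Each shUHRF1 library exceeded each scramble library of its line. The rise was 1.87-fold in TE10 (log2 0.90 ± 0.0849, edgeR adjusted p = 8.17e-13) and 1.45-fold in Kyse410 (0.54 ± 0.0717, 1.04e-08). The response in Kyse410 was smaller by a log2 difference of -0.37 ± 0.112 (edgeR adjusted p = 0.00699), which was -0.29 without TE10 scramble replicate 3 (adjusted p = 0.0509).

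SMAD7, the inhibitor that targets the TGF-beta receptors for degradation, behaved otherwise. Its levels were 19.2, 20.3 and 17.4 CPM in TE10 shUHRF1, against 14.0, 15.1 and 16.1 CPM in TE10 scramble, and 23.2, 22.4 and 19.2 CPM in Kyse410 shUHRF1, against 25.8, 22.5 and 24.2 CPM in Kyse410 scramble. The groups were separate in TE10 and overlapped in Kyse410. SMAD7 rose in TE10 by 0.33 ± 0.117 (edgeR adjusted p = 0.021), and in Kyse410 its value was -0.16 ± 0.0979 (95% interval -0.36 to 0.03, edgeR adjusted p = 0.172). The TE10 value was 0.28 both without shUHRF1 replicate 2 (adjusted p = 0.0951) and without scramble replicate 1 (adjusted p = 0.0895). The difference between the lines was -0.49 ± 0.153 (edgeR adjusted p = 0.00804).

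SMAD3, which carries TGF-beta and activin signals to DNA, had 120.0, 123 and 129.9 CPM in TE10 shUHRF1, against 137, 139 and 145 CPM in TE10 scramble. In Kyse410 shUHRF1 it had 279, 269.9 and 262 CPM, against 227, 219 and 234 CPM in Kyse410 scramble. The groups were separate in each line, lower with the shRNA in TE10 and higher with it in Kyse410. The changes were small, at -0.18 ± 0.0490 in TE10 (edgeR adjusted p = 0.003) and 0.26 ± 0.0416 in Kyse410 (8.14e-07), with a difference of 0.43 ± 0.0643 (2.15e-07). Without TE10 shUHRF1 replicate 1 the TE10 value was -0.12 (adjusted p = 0.0789).

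SKIL encodes SnoN, a repressor of SMAD-driven transcription whose gene is itself induced by TGF-beta. It had 55.5, 51.5 and 48.3 CPM in TE10 shUHRF1, against 40.3, 39.3 and 38.9 CPM in TE10 scramble. Kyse410 shUHRF1 had 90.5, 99.9 and 108 CPM, against 118, 132 and 112 CPM in Kyse410 scramble. The groups did not overlap, and the order of shUHRF1 and scramble was reversed between the lines. SKIL rose by 0.39 ± 0.0797 in TE10 (edgeR adjusted p = 7.01e-05) and fell by 0.28 on the log2 scale in Kyse410 (SE 0.0592, edgeR adjusted p = 8.18e-05). The difference was -0.67 ± 0.0993 (edgeR adjusted p = 1.98e-07).

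For the difference of the responses, Kyse410 minus TE10, 3 of the 10 genes had a more positive response in Kyse410 (TGFB1, SMAD3 and INHBA) and 3 a more negative one (SMAD6, SMAD7 and SKIL). Over all genes 19.0% were more positive and 19.9% more negative, 38.9% together. The median difference of the 10 was -0.08, against -0.008 over all genes.

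The scramble controls of the lines, which serve in the knockdown comparisons too, already differed in most of these genes. Kyse410 scramble was higher than TE10 scramble in 8 of the 10 and lower in 1, where 36.7% of all genes were higher and 37.1% lower, or 73.7% called in all. The libraries did not overlap for 9 of the 10, against 76.1% of all genes. The median log2 difference of the 10 was 0.66, against -0.002 over all genes.

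INHBA, TGFB2 and SKIL differed most between the lines. INHBA averaged 86.4 ± 7.38 CPM in Kyse410 scramble and 23.8 ± 2.52 CPM in TE10 scramble, a 3.61-fold difference (log2 1.85 ± 0.0799, edgeR adjusted p = 4.36e-27). TGFB2 averaged 8.63 ± 0.425 CPM in Kyse410 scramble and 2.39 ± 0.546 CPM in TE10 scramble, also 3.61-fold (1.85 ± 0.216, edgeR adjusted p = 7.88e-11). SKIL averaged 120 ± 10.7 CPM in Kyse410 scramble and 39.5 ± 0.740 CPM in TE10 scramble, or 3.05-fold (1.61 ± 0.0692, edgeR adjusted p = 3.78e-27). The SMADs were higher in Kyse410 by similar amounts, 0.69 ± 0.0449 for SMAD3, 0.68 ± 0.108 for SMAD7 and 0.63 ± 0.0835 for SMAD6 (edgeR adjusted p = 1.34e-19, 1.63e-07 and 2.75e-09). Of the receptors, TGFBR3 was higher by 0.44 ± 0.0858 and TGFBR2 by 0.35 ± 0.0417 (edgeR adjusted p = 1.03e-05 and 1.79e-10). TGFBR1 differed by 0.29 ± 0.153 and was not called (95% interval -0.02 to 0.60, edgeR adjusted p = 0.0855), but it was called without Kyse410 scramble replicate 2 (0.42, adjusted p = 0.0162). TGFB1 alone was lower in Kyse410, at 106 ± 2.88 CPM in Kyse410 scramble and 182 ± 4.99 CPM in TE10 scramble (log2 -0.78 ± 0.0461, edgeR adjusted p = 2.28e-21).

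**Figure D3:**
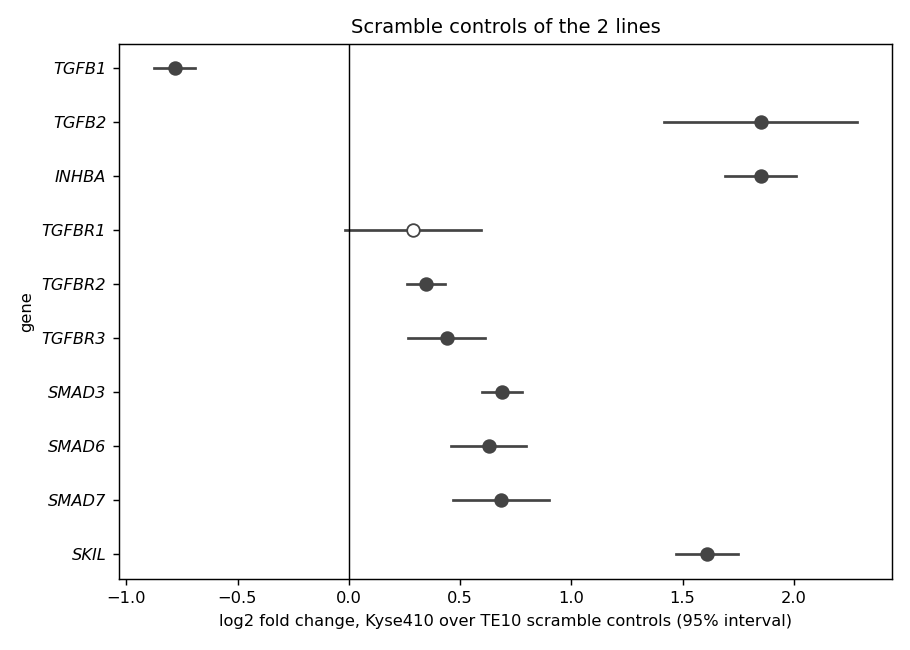
Log2 difference of each gene between the scramble controls, Kyse410 over TE10 (horizontal axis). Bars are 95% intervals computed from the edgeR fold change and its SE. The open symbol, TGFBR1, was not called. INHBA, TGFB2 and SKIL lie farthest to the right, and TGFB1 lies at -0.78.

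Levels were compared between genes as CPM per kilobase of exon. TGFB1 and TGFBR2 led in all 4 groups. The means of TGFB1 were 52.8 CPM per kilobase in TE10 shUHRF1, 56.3 in TE10 scramble, 40.1 in Kyse410 shUHRF1 and 32.8 in Kyse410 scramble. Those of TGFBR2 were 30.5 in TE10 shUHRF1, 42.5 in TE10 scramble, 38.4 in Kyse410 shUHRF1 and 54.1 in Kyse410 scramble, so TGFBR2 stood first in Kyse410 scramble alone. SMAD3 was the third in each group, at 13.7 to 29.7 CPM per kilobase. TGFB2 and TGFBR1 were the lowest in each group, between 0.343 and 1.68 CPM per kilobase, and their libraries overlapped in Kyse410 scramble. In Kyse410 shUHRF1 INHBA (14.5) and SKIL (12.8) followed SMAD3 with overlapping libraries. In TE10 INHBA stood far lower, at 1.89 CPM per kilobase in shUHRF1, where it overlapped TGFBR3, and 2.87 in scramble, where it overlapped SMAD6. TGFBR3, the next after SKIL in TE10 scramble at 3.69 CPM per kilobase, stood below INHBA in TE10 shUHRF1 at 1.75.

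Another 79 genes of the pathway were listed, of which 65 were tested. In TE10, 10 of these rose, 29 fell and 26 were not called, with a median log2 fold change of -0.16. In Kyse410, 20 rose, 32 fell and 13 were not called, with a median of -0.24. Over all genes tested, 18.8% rose and 20.0% fell in TE10, and 22.6% rose and 26.7% fell in Kyse410. For the difference of the responses, 20 were more positive in Kyse410, 20 more negative and 25 not called, against 19.0% more positive and 19.9% more negative over all genes. Between scramble controls 45 were higher in Kyse410, 11 lower and 9 not called, with a median of 0.54, against 36.7% higher and 37.1% lower over all genes. The counts by role that follow are parts of these, with the same shares over all genes behind them, and no difference from those shares was tested. These lists too were chosen with earlier results of these data known, so the shares are descriptive.

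The list of genes known to be induced or repressed by TGF-beta or BMP signals held 20 genes, all tested. In TE10, 3 rose and 12 fell, with a median log2 fold change of -0.46, and in Kyse410 6 rose and 12 fell, with a median of -0.30. ADAM19, a metalloprotease, changed most in TE10, at 2.15 ± 0.363 CPM in TE10 shUHRF1 and 12.6 ± 1.89 CPM in TE10 scramble (-2.55 ± 0.218, edgeR adjusted p = 3.09e-14). NEDD9, a docking protein of focal adhesions, fell to 23.4 ± 2.09 CPM in Kyse410 shUHRF1, against 96.5 CPM in Kyse410 scramble (-2.04 ± 0.0803, edgeR adjusted p = 9.48e-28). CCN2, the matricellular connective tissue growth factor, was 34.1 ± 2.24 CPM in Kyse410 shUHRF1 and 103 CPM in Kyse410 scramble (-1.59 ± 0.0693, edgeR adjusted p = 5.91e-26). Its responses differed between the lines by -1.45 ± 0.171, those of NEDD9 by -2.35 ± 0.278 and those of ADAM19 by 3.18 ± 0.290 (edgeR adjusted p = 7.82e-10, 7.85e-10 and 3.64e-13). In TE10 neither CCN2 (-0.15 ± 0.152) nor NEDD9 (0.31 ± 0.258) was called. NEDD9 was low there, at 3.03 ± 0.973 CPM in TE10 shUHRF1 and 2.41 ± 0.644 CPM in TE10 scramble. ADAM19 was called in Kyse410 in the other direction (0.63 ± 0.185). ID1, a helix-loop-helix protein induced by BMPs, rose to 707 ± 11.5 CPM in Kyse410 shUHRF1, against 258 CPM in Kyse410 scramble (1.45 ± 0.0397, edgeR adjusted p = 1.18e-34). In TE10 its value was 0.05 ± 0.0406, not called. FN1, which encodes fibronectin, was picked for this text after its values were seen. It fell in TE10 (-0.97 ± 0.0406) and in Kyse410 (-1.17 ± 0.0411).

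Of 8 further ligands tested, 3 rose and none fell in TE10 in edgeR, and 4 rose and 2 fell in Kyse410. GDF15, a stress-induced cytokine, averaged 75.1 ± 1.99 CPM in TE10 shUHRF1 and 21.7 ± 2.16 CPM in TE10 scramble (1.80 ± 0.0682, edgeR adjusted p = 3.11e-28). It averaged 965 ± 20.0 CPM in Kyse410 shUHRF1 and 1546 CPM in Kyse410 scramble, so that the responses differed by -2.48 ± 0.0765 (edgeR adjusted p = 2.46e-31). BMP2, a bone morphogenetic protein, rose in TE10 to 43.5 ± 2.31 CPM in shUHRF1, against 13.9 ± 1.79 CPM in scramble (1.64 ± 0.0866, edgeR adjusted p = 4.01e-22). In Kyse410 it rose by 0.33 ± 0.0419. INHBB, the activin beta B subunit, rose in TE10 to 28.3 ± 1.12 CPM in shUHRF1, against 11.1 ± 0.565 CPM in scramble (1.34 ± 0.109, edgeR adjusted p = 5.67e-15), and in Kyse410 by 0.64 ± 0.0842.

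Among antagonists, of which 4 were tested, 1 rose and 2 fell in TE10, and 1 rose and 3 fell in Kyse410. FST encodes follistatin, which binds and neutralises activins. It averaged 5.87 ± 0.804 CPM in TE10 shUHRF1 and 21.0 ± 0.816 CPM in TE10 scramble (-1.84 ± 0.134, edgeR adjusted p = 9.12e-17), and 17.5 ± 0.795 CPM in Kyse410 shUHRF1 and 48.6 CPM in Kyse410 scramble (-1.48 ± 0.0887, edgeR adjusted p = 3.38e-20). FST thus fell in both lines, while INHBA, the activin subunit, fell in TE10 and rose in Kyse410. CHRD, which encodes the BMP antagonist chordin, had responses that differed by 2.24 ± 0.315 (edgeR adjusted p = 6.04e-08), with -2.53 ± 0.283 in TE10 and -0.29 ± 0.119 in Kyse410. It averaged 0.910 ± 0.409 CPM in TE10 shUHRF1, against 5.29 ± 0.778 CPM in TE10 scramble. So few reads in TE10 shUHRF1 leave the size of the TE10 fold and of the difference uncertain. The Kyse410 value lost its call under 8 of 11 alternatives, among them leaving out any of the 3 shUHRF1 libraries (-0.31 to -0.24) and scramble replicate 1 (-0.25) or 3 (-0.28).

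Of 8 genes of ligand latency and release tested, 2 rose and 5 fell in TE10, and 5 rose and 2 fell in Kyse410. LTBP2, a member of the latent TGF-beta binding protein family, fell in TE10, to 5.37 ± 1.12 CPM in shUHRF1, against 14.1 ± 0.686 CPM in scramble (-1.39 ± 0.163, edgeR adjusted p = 5.88e-10). In Kyse410 it rose to 10.9 ± 0.844 CPM in shUHRF1, against 3.91 CPM in scramble (1.48 ± 0.163, edgeR adjusted p = 4.55e-11), and the responses differed by 2.87 ± 0.230 (5.28e-15). THBS1, a matrix protein that can activate latent TGF-beta and is also a known TGF-beta target, fell to 43.7 ± 1.29 CPM in Kyse410 shUHRF1, against 163 CPM in Kyse410 scramble (-1.90 ± 0.0553, edgeR adjusted p = 1.94e-33), and in TE10 by 0.99 on the log2 scale (SE 0.0557).

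Other receptors numbered 9 tested, of which 4 fell and 0 rose in TE10 in edgeR, and 4 fell and 1 rose in Kyse410. Of 5 other SMADs, 2 fell in TE10, and 2 rose and 1 fell in Kyse410. SMAD2 and SMAD4, the partners of SMAD3, were named for that role after their values were seen. SMAD2 fell in Kyse410 (-0.32 ± 0.0502), and its value in TE10 was -0.16 ± 0.0661, not called, though called without TE10 shUHRF1 replicate 2 (-0.18) or without TE10 scramble replicate 3 (-0.19). SMAD4 had overlapping libraries in TE10 and a log2 fold change of -0.26 ± 0.105 close to the threshold (edgeR adjusted p = 0.0473). Over all 11 alternatives its adjusted p ran from 0.00200 to 0.455, and the call was lost under 7 of them. Leaving out TE10 shUHRF1 replicate 1 (-0.22) or 3 (-0.20), or TE10 scramble replicate 2 (-0.12) or 3 (-0.24), each ended it. In Kyse410 SMAD4 was not called (-0.18 ± 0.0919). Of 11 regulators of SMADs and receptors, 1 rose and 4 fell in TE10, and 1 rose and 8 fell in Kyse410.

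**Figure D4:**
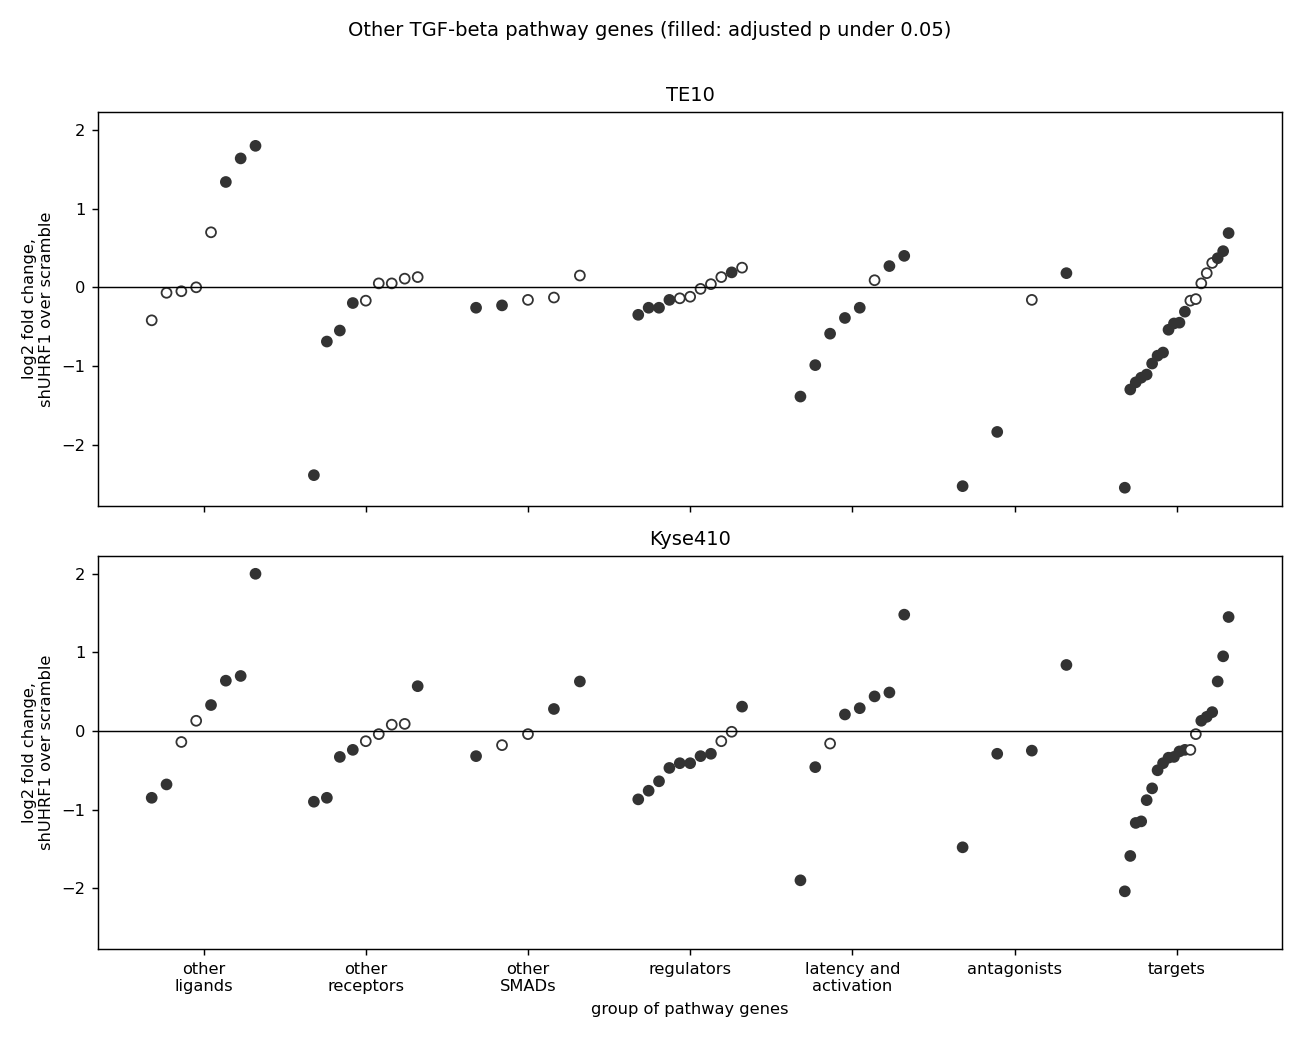
Log2 fold change of the other pathway genes tested with the UHRF1 shRNA, 1 point per gene, by role and line, filled where called. The targets, which mix genes induced and repressed by TGF-beta or BMP signals, are spread mostly below 0 in both lines. Their medians were -0.46 in TE10 and -0.30 in Kyse410. Some other roles also had medians below 0, such as antagonists in TE10 (-1.0) and regulators in Kyse410 (-0.41). The ligands had medians of 0.35 in TE10 and 0.23 in Kyse410.

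Between the scramble controls, the largest differences among the other pathway genes were in ligands and targets. GDF15 stood at 1546 CPM in Kyse410 scramble and 21.7 CPM in TE10 scramble (log2 6.16 ± 0.0532, edgeR adjusted p = 1.06e-58), and BMP2 at 251 CPM in Kyse410 scramble and 13.9 CPM in TE10 scramble (4.16 ± 0.0659, edgeR adjusted p = 1.29e-46). INHBE, an activin beta subunit gene, was at 20.2 CPM in Kyse410 scramble and at 0.326 ± 0.207 CPM in TE10 scramble, too few reads there for a firm fold (edgeR adjusted p = 1.39e-27). The targets NEDD9 (5.31 ± 0.127), CCN2 (3.69 ± 0.0929) and CDKN2B (2.98 ± 0.102), a cyclin-dependent kinase inhibitor, were higher in Kyse410 (edgeR adjusted p = 1.35e-38, 1.47e-37 and 1.60e-31).

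The 3 genes with the widest range of group means were INHBA, TGFB2 and SKIL, with ranges of 2.95, 2.24 and 1.60 on the log2 scale. Among 11753 other genes with a symbol and a mean of at least 5 CPM, those with the nearest 4 group means of log2 CPM, centred on their own mean, were found by Euclidean distance. OLMALINC (0.0527) and NEURL1B (0.161) were nearest to INHBA, ABL2 (0.112) and PRKCE (0.157) to TGFB2, and RUSC2 (0.0569) and PYCR1 (0.0972) to SKIL. With 4 group means, likeness of this kind is a description of these libraries.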

How the data were processed

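Polyadenylated RNA was sequenced from 12 libraries in 4 groups. The deposited files hold raw counts of reads per gene, which the authors made with HTSeq 0.9.1 after HISAT2 2.1.0 alignment to GRCh37.p13, per the submitters' processing notes, which also name bcl2fastq 2.19 and DESeq2 but no settings. Neither HTSeq's strand setting nor the release of the annotation is given in the sources used here, so reads of overlapping genes on opposite strands cannot be told apart. Between 58.89 and 61.48% of a library's reads were not assigned to a gene and stayed out of library sizes. Reads with no feature, a part of these, made up 42.88 to 44.66% of a library's reads. Gene reads were 7857662 to 12005229 of 19346007 to 30727953 reads per library. Of 57820 identifiers, 51997 were matched to symbols, with 98.90% of gene reads. UHRF1 was named by hand from ENSG00000034063.

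Counts were fitted in edgeR 4.0.16 (limma 3.58.1, R 4.3.3) with filterByExpr, TMM scaling and glmQLFit on 12 libraries, 1 mean for each group, which left 8 residual degrees of freedom. Contrasts set shUHRF1 against scramble within a line, these responses against each other (Kyse410 minus TE10), and the Kyse410 scramble libraries against the TE10 ones. Benjamini-Hochberg adjustment ran over 16060 genes. SE was taken as the fold change over the square root of F. RLE scaling, DESeq2 1.42.0, no filter, fits of 2 groups, a replicate block and leaving out each library were the alternatives. The same-numbered libraries did not deviate together, so the block is not used in the results. Between replicates the chi-square per degree of freedom was 1.57 to 2.92. Exon lengths and overlaps came from GENCODE release 29 (GRCh38), promoters from RefSeq (GRCh38.p14, with windows for each of the 10 genes). Python 3.11.15, pandas 2.3.3, numpy 2.4.6 and matplotlib 3.10.9 made tables and plots.

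The 10 genes and all lists were chosen with earlier results of these data known. Besides these and UHRF1, the text names in each comparison the 6 other pathway genes with the largest absolute fold change among those called, averaging 5 CPM or more in the libraries compared and without overlap between the groups. For the difference of responses the mean was over the 12 libraries and overlap was not considered. FN1, SMAD2 and SMAD4 fall outside that rule and were named after their values were seen.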

Additional observations from a re-analysis of the deposited data

Results flagged for a closer look

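Of the 10 genes, 6 had responses to the UHRF1 shRNA that differed between the lines in the test of the difference itself (Kyse410 minus TE10, log2). Over all genes tested, 38.9% were called in that test. INHBA differed by 1.09, with 0.48 in Kyse410 and -0.61 in TE10. SMAD3 differed by 0.43, with 0.26 in Kyse410 and -0.18 in TE10. TGFB1 differed by 0.38, with 0.29 in Kyse410 and -0.09, not called, in TE10. SKIL differed by -0.67, with -0.28 in Kyse410 and 0.39 in TE10. SMAD7 differed by -0.49, with -0.16, not called, in Kyse410 and 0.33 in TE10. SMAD6 differed by -0.37, with a rise in both lines, 0.54 in Kyse410 and 0.90 in TE10.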

How the results depend on the processing

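All 196 counts recomputed under the alternatives stayed within 1.5 times the values reported, a limit that a count going from 3 to 2 still meets. Of the 10 genes, 2 to 3 rose and 3 to 4 fell in TE10, and 4 to 5 fell in Kyse410. More negative differences of responses numbered 2 to 3, and genes higher in Kyse410 scramble 8 to 9. The other counts of the 10 did not change. Of 1052 recomputed log2 fold changes of the 10 genes, UHRF1 and the other pathway genes named, 1017 kept their direction and their side of the threshold, 23 lost their call, 6 gained one and 6 changed sign. For genes other than the 10, these alternatives were added after seeing the data. The 6 sign changes were in differences of responses that were not called and lay near 0. The difference for TGFBR2 was 0.01 with no low-count filter and -0.04 to 0.01 over fits that leave out a library, and that for TGFBR1 ran from -0.28 to 0.01 over such fits. The lost calls of the 10 genes, of SMAD4 and of CHRD stand beside their results, as do the gain for TGFBR1 between scramble controls and those for SMAD2 without a library. SMAD2 in TE10 was also called with no low-count filter (-0.17) and with the replicate block (-0.16). ADAM19 in Kyse410, at 0.63, lost its call without Kyse410 shUHRF1 replicate 1 (0.46, adjusted p = 0.0639). The remaining gain was the UHRF1 difference, -0.20 without TE10 shUHRF1 replicate 1 (adjusted p = 0.0483), against -0.16 (adjusted p = 0.093). With the replicate number as a block no call among the 10 genes changed, and other pathway genes that fell numbered 30 in TE10 and 33 in Kyse410. Correlations of same-numbered deviations between shUHRF1 and scramble ran from -0.005 to 0.025 in TE10 and from -0.031 to 0.12 in Kyse410. TGFB2 had 11 to 24 reads per library in TE10, the fewest of the 10 genes. For why calls changed, the cause was not tested.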
